A study of Mus musculus with 2 samples.

Results

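Hepatocyte growth factor (HGF) and the platelet-derived growth factors (PDGFs), with the receptors they bind, were read in uterine stromal cells of mice that lack Hand2 in the uterus and of their controls. The members were 8 genes picked by symbol, the ligand genes Hgf, Pdgfa, Pdgfb, Pdgfc and Pdgfd and the receptor genes Met, Pdgfra and Pdgfrb, out of 18193 genes named on the array. Each probe set whose platform annotation gives 1 of these symbols and no other was kept, which left 19 probe sets. The gene set was chosen with values of these arrays known, so its values are a description.

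The study compared 2 pools of cells taken on day 4 of pregnancy, around the time of implantation. The control pool came from mice with floxed Hand2, which encodes a stromal transcription factor of the basic helix-loop-helix class. The Hand2-null pool came from mice that carry PRcre beside the floxed allele. PRcre places Cre recombinase under the progesterone receptor locus and so acts in the uterine cell types that express this receptor, not in stroma alone. The labels list Prcre, C57BL/6 and SV129 in a mixed background for both pools. Each pool came from 5 mice by the series design, or 4 by the extraction protocol. Cells left after removal of epithelial clumps were digested with collagenase and kept when they attached to culture plates. RNA of each genotype was pooled and hybridized to 1 array, so no value has a replicate, an error or a test, and each comparison is of these 2 pools.

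HGF is made by mesenchymal cells as an inactive chain that proteases cut into the active form, and it signals to epithelial cells through the receptor tyrosine kinase MET. The PDGF ligands are dimers. PDGF-A and PDGF-B are processed inside the cell, while PDGF-C and PDGF-D carry a CUB domain that proteases outside the cell remove. PDGF-A and PDGF-C act mainly through the alpha receptor, PDGF-D mainly through the beta receptor, and PDGF-B through both. In the uterus the receptors are known from stromal fibroblasts and from pericytes and muscle around vessels.

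The promoters of the 3 ligand genes with the widest difference between the arrays are shown here so that the letters ahead of their start sites can be read beside the values. Each is the 250 bases before the most upstream RefSeq start of the gene in the table used, 5′ to 3′ on the strand of the gene. Capitals mark matches to CANNTG, the E-box that basic helix-loop-helix factors bind. The motif class reads the same on both strands, and matches were allowed to overlap.
Hgf, GRCm38.p6 chr5:16553245-16553494, plus strand: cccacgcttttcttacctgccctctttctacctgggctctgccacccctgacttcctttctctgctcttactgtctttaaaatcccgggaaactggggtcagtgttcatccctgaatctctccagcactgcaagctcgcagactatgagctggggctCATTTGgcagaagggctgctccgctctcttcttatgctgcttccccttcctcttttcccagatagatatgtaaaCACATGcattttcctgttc
Pdgfd, GRCm38.p6 chr9:6168236-6168485, plus strand: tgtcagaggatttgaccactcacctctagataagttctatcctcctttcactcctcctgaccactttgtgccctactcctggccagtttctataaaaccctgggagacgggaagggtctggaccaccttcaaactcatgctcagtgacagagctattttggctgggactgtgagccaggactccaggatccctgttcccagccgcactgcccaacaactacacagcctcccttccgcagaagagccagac
Pdgfa, GRCm38.p6 chr5:138994945-138995194, minus strand: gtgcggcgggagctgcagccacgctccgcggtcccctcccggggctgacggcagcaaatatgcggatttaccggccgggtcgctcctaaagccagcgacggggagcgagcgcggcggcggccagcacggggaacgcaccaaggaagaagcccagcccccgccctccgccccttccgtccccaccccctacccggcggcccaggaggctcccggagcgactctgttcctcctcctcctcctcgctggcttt

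The Hgf window held 2 matches, CATTTG from 93 to 88 bases and CACATG from 19 to 14 bases before the start. The windows of Pdgfd and Pdgfa held 0. Among the other members in the table, Met held 1 match (CACGTG, 126 to 121 bases before the start), Pdgfra held 1 (CATCTG, 182 to 177 bases before it) and Pdgfc held 0. Over 27025 genes with a window of this length, 66.1% held at least 1 match and the median was 1, so a match is common. Of the 14452 among them named on the array, 60.9% held at least 1, with the same median. The share with 2 or more matches, as in Hgf, was not computed. Hgf and Pdgfa each have 2 starts in the table and only the upstream one was searched. Of the 8 members 6 had a window in the table.

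Signals are MAS5 values, a summary over the probes of a set after mismatch signal is subtracted, on a linear scale. Below a floor, taken as each array's 60th percentile (64.2 in the control and 67.5 in the Hand2-null array), a signal was treated as a bound, and a probe set counted as measured when it reached the floor in at least 1 array. All 8 member genes were measured. Of the 19 probe sets 13 were at or above the floor in both arrays, 2 in the control array alone, 0 in the Hand2-null array alone and 4 in neither. Ratios are log2 of Hand2-null over control, and the brightest probe set stands for its gene. In these terms 4 member genes were higher and 4 lower in the Hand2-null array, 2 were lower by 2-fold or more (Hgf and Pdgfd) and 0 were higher by that much. Of 10371 measured genes 0.742% were at least 2-fold lower and 1.99% at least 2-fold higher. Of the 15 measured member probe sets 2 were at least 2-fold lower and 1 was at least 2-fold higher, against 0.659% and 1.79% of the measured probe sets that name a gene. The members' median log2 ratio was -0.08, against -0.03 over all measured genes. Hgf, at -1.48, and Pdgfd, at -1.04, lay past the 2-fold line, and the next member was Pdgfa, at 0.82.

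**Figure D1:**
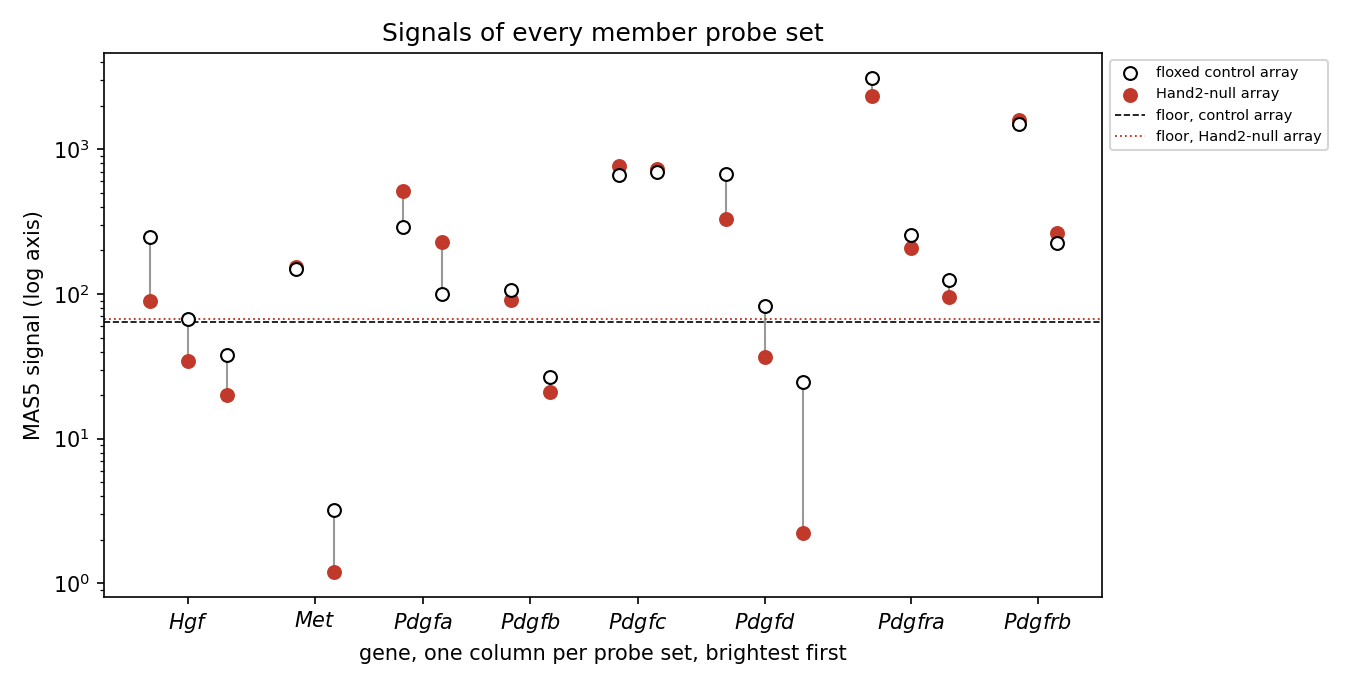
MAS5 signal on a log axis for each of the 19 probe sets, grouped by gene with the brightest set first. Open circles are the control array, filled circles the Hand2-null array, and the lines mark the floors of 64.2 and 67.5. Levels are to be compared within a column only. The Hgf and Pdgfd columns have the control circle on top, and the Pdgfa columns have the Hand2-null circle on top. The pairs of Met, Pdgfc and Pdgfrb above the floor lie close together.

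The arrays were checked first by Hand2 itself. Probe set 1436041_at read 1545 in the control pool and 38.5, which is under the floor, in the Hand2-null pool, a drop of at least 22.9-fold. The remaining Hand2 probe sets did not reach the floor. The labels do not say which exons are removed, so whether these probe sets lie in the removed part is not known. Stromal markers were present, with 10 of 10 above the floor in both arrays and summed signals of 49173 in the control and 54894 in the Hand2-null array. Such a sum follows the brightest genes of its list. Of the stromal markers 5 were higher and 5 lower. Their median log2 ratio was -0.04, in a range from -0.68 for Hoxa11 to 0.98 for Col1a1. Markers of other cells were present too and are given below. Lower RNA of a gene in a pool can come from fewer cells of a type or from less RNA per cell, and these cannot be told apart here.

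Hgf, the ligand of MET, was the lowest member. Probe set 1442884_at read 249 in the control pool and 89.2 in the Hand2-null pool, 2.79-fold lower, and the second value was 1.32 times the floor. Of the measured genes 0.241% had a ratio as low or lower, which put Hgf at rank 25 from the lowest. Ranks and shares here count genes with 1 array under the floor at their bound, so some may lie further out than ranked. Its other probe sets were dim. Probe set 1451866_a_at read 66.7 in the control pool, 1.04 times the floor, and only 34.6 in the Hand2-null pool, which leaves no bound on a fold. Probe set 1425379_at had 37.8 and 20.2, under the floor in both. The Hgf difference therefore rests on 1 probe set. The annotation gives the Hgf sets different source sequences, and their positions on the transcript were not read. The deposited signals of the dimmer sets were lower in the Hand2-null pool too, but at or below the floor such readings have no reliable order. With the floor added to each signal the log2 ratio was -0.998. A floor at the 75th percentile lies above the Hand2-null signal and leaves only a bound, -0.59 or lower.

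Met, which encodes the HGF receptor, had nearly the same signal in both arrays. Probe set 1434447_at read 148 in the control pool and 154 in the Hand2-null pool, a log2 ratio of 0.06. Probe set 1422990_at was under the floor in both, at 3.24 and 1.20, and gives no fold. MET is known mainly from epithelial cells, and epithelial markers were in these isolates: 10 of 10 were above the floor in both arrays, with summed signals of 8371 and 8704 and a median log2 ratio of 0.18. Which cells held the Met transcript was not tested.

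Pdgfd, the beta receptor ligand with a CUB domain, was the other member past 2-fold. Probe set 1456532_at read 678 in the control pool and 329 in the Hand2-null pool, both well above the floor, which is 2.06-fold lower and rank 67 from the lowest. Probe set 1426319_at read 83.1 in the control pool and 36.7, below the floor, in the Hand2-null pool, at least 1.23-fold lower. Probe set 1446691_at was under the floor in both, at 24.5 and 2.22. Both measured probe sets of Pdgfd thus had the lower signal in the Hand2-null array. The second can show only a bound, because its control signal was 1.29 times the floor. The annotation gives the Pdgfd sets different source sequences, and their positions on the transcript were not read. With the floor added to each signal, the ratio of the brightest set was -0.90, short of 2-fold.

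Pdgfa, an alpha receptor ligand, went the other way. Probe set 1449187_at read 289 in the control pool and 511 in the Hand2-null pool, 1.77-fold higher. Probe set 1418711_at had 99.5 and 230, 2.31-fold higher. Both probe sets were above the floor in both arrays and both were higher, with log2 ratios of 0.82 and 1.21 that differ by 0.38. The median gap was 0.16 over the 2389 genes with 2 such probe sets, and 29.5% of these genes had both higher. The annotation gives both sets the same source sequence, so they are not separate targets. By its brighter probe set Pdgfa was at rank 357 from the highest, with 3.44% of measured genes as high or higher, and under the 2-fold line that its dimmer probe set passed. With the floor added to each signal that dimmer set was at 0.86, and with a floor at the 75th percentile, above its control signal, only a bound of 0.49 or higher is left.

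Pdgfc, the other alpha receptor ligand and the relative of Pdgfd in domain structure, had close signals in the 2 arrays. Probe set 1449351_s_at read 669 in the control pool and 768 in the Hand2-null pool, a log2 ratio of 0.20, and probe set 1419123_a_at had 693 and 733, a log2 ratio of 0.08. Both sets point to the same transcript accession. Pdgfb, the ligand that endothelial cells and platelets supply to pericytes, had 106 and 90.4 by probe set 1450414_at, a log2 ratio of -0.23, and 26.6 and 21.0, under the floor in both, by probe set 1450413_at. The Pdgfb signals were within 1.65 times the floor. Where a gene had several probe sets over both floors, their log2 ratios had a pooled SD of 0.19 (3665 genes). This SD measures disagreement between sets within the same 2 arrays. It leaves out variation between mice and between hybridizations. The Pdgfb ratio and the larger of the Pdgfc ratios were barely beyond that SD, which cannot show whether the pools differ.

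Pdgfra, the alpha receptor gene and a marker of fibroblasts, was modestly lower by every probe set. Probe set 1421917_at read 3121 in the control pool and 2339 in the Hand2-null pool, a log2 ratio of -0.42. Probe set 1438946_at had 256 and 209, a ratio of -0.29. Probe set 1421916_at had 124 and 94.6, a ratio of -0.40. The ratios lay within 0.12 of each other, against a median range of 0.27 for the 820 genes with 3 probe sets over both floors. The first and last of these sets have the same source accession, so they are not separate targets. All 3 sets were lower in 31.2% of those genes, so the shared sign by itself is common. Of all measured genes 8.10% were as low as Pdgfra or lower.

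Pdgfrb, the beta receptor gene of pericytes and stromal cells, had nearly the same signal in both arrays by its brighter probe set. Probe set 1436970_a_at read 1502 in the control pool and 1581 in the Hand2-null pool, a log2 ratio of 0.07. Probe set 1417148_at had 226 and 265, a ratio of 0.23. By its brighter set the beta receptor gene thus differed little between the arrays beside the 2.06-fold lower signal of its ligand gene Pdgfd. The alpha receptor gene was 1.33-fold lower beside the higher signal of its ligand gene Pdgfa. Of the ligands, 2 were at least 2-fold lower, 1 was 1.77-fold higher and 2 differed by 1.17-fold (Pdgfb, lower) and 1.15-fold (Pdgfc, higher). Of the receptors, 1 was 1.33-fold lower and 2 were higher by 1.04-fold (Met) and 1.05-fold (Pdgfrb).

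**Figure D2:**
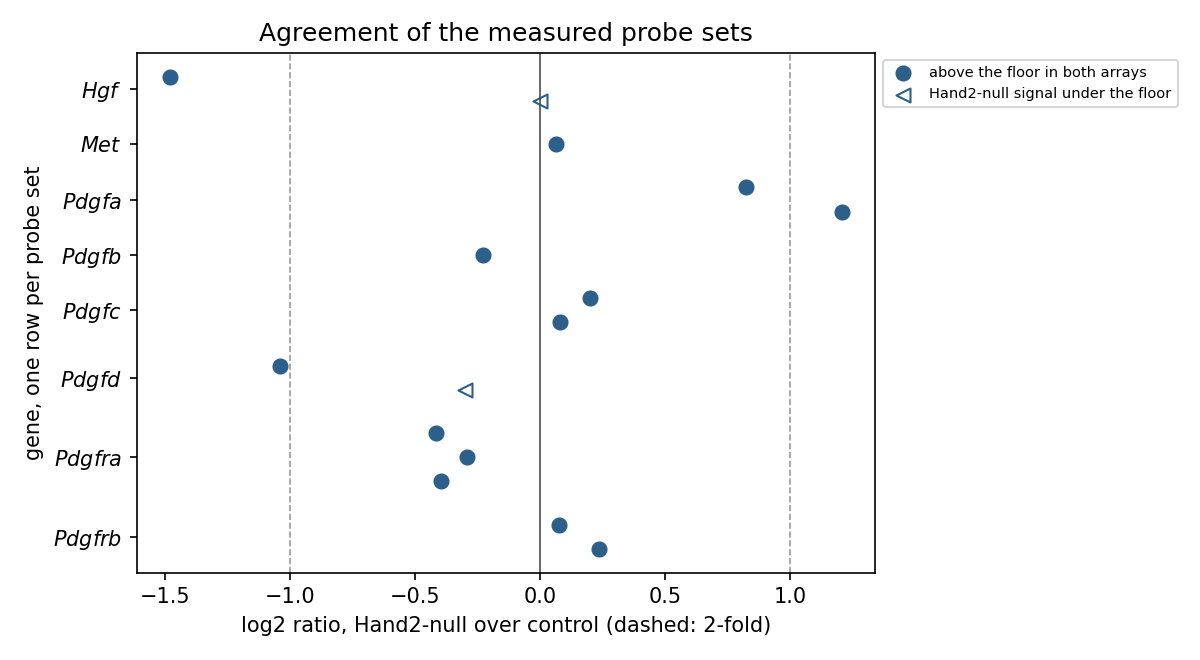
Log2 ratio of Hand2-null over control for the 15 measured member probe sets, 1 row each, grouped by gene. Filled circles are above the floor in both arrays and open triangles mark sets whose Hand2-null signal was under the floor. Pdgfa has both points at 0.82 or more and Pdgfra has 3 points between -0.42 and -0.29. Hgf and Pdgfd each have a filled point past the dashed 2-fold line. The Pdgfd triangle is at its bound of -0.30, and the Hgf triangle is at 0 only because no bound was left.

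**Figure D3:**
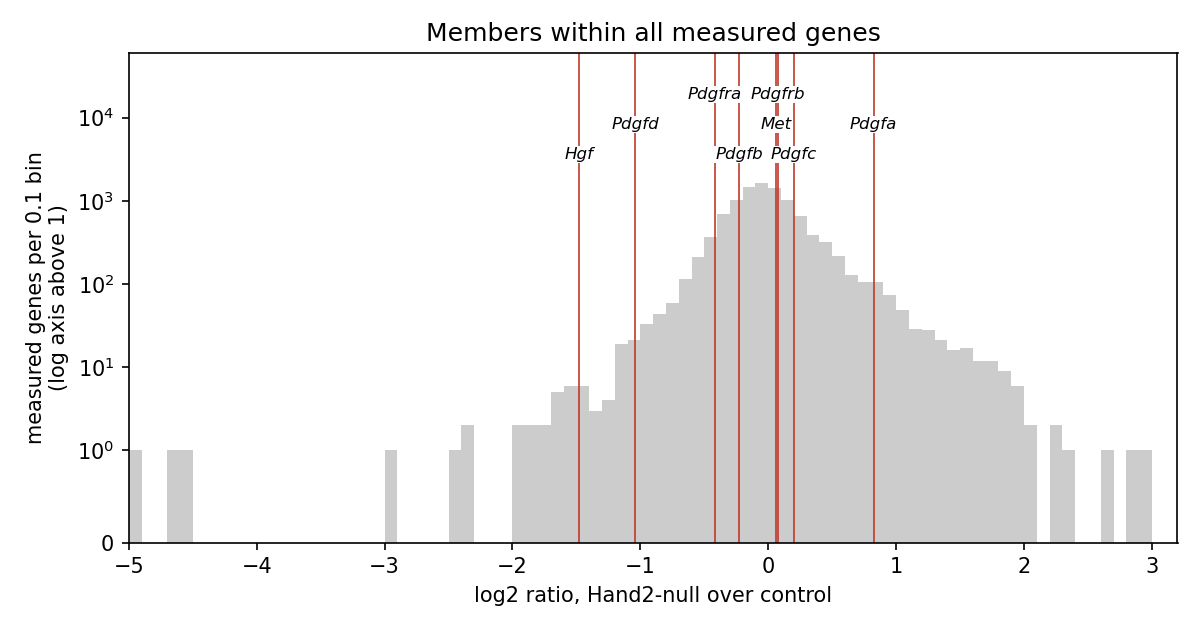
Number of measured genes per bin of log2 ratio, as bars on an axis that is logarithmic above 1, for 10371 genes, with red lines at the 8 members. Hgf and Pdgfd stand in the sparse left tail at -1.48 and -1.04, Pdgfa on the right shoulder at 0.82, and the other members between -0.42 and 0.20.

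Other genes of the pathways were read from lists. For HGF processing, 6 of 10 genes were measured, 4 higher and 2 lower, 0 past 2-fold in either direction, with a median log2 ratio of 0.17. Over all measured genes 44.1% were higher and 55.3% lower. Plat, the tissue plasminogen activator, led with 939 and 1488, 1.58-fold higher, and its second probe set had a log2 ratio of 1.501. Plau, the urokinase that can cut HGF and PDGF-D, read 27.3, below the floor, in the control pool and 94.6 in the Hand2-null pool, at least 1.47-fold higher. Spint2, an inhibitor of HGF-activating proteases, was at 0.20, and St14, the protease matriptase, at 0.14. Hgfac, Hpn, Klkb1 and F12, further proteases of this kind, were under the floor in both arrays.

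Of 12 genes that process or bind PDGFs, all measured, 9 were higher and 3 lower, and the median was 0.36. Higher by 2-fold or more were 2, and 0 were lower by that much. A2m, the protease inhibitor alpha-2-macroglobulin that also binds growth factors, read 623 in the control pool and 2107 in the Hand2-null pool, 3.38-fold higher on its 1 probe set. Pdgfrl, which encodes a protein that resembles the outer part of a PDGF receptor, had 165 and 489, 2.96-fold higher on its 1 probe set. Pcsk6, a proprotein convertase, was at 0.77 with a control signal of 72.0, near the floor, and Plat was at 0.66. The related convertase Pcsk5 was lower, at -0.50, with a second probe set at -0.62. Plat, Plau and St14 stand on this list as well as on that of HGF processing.

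Signalling genes coupled to the receptors were balanced. Of 33 measured genes 16 were higher, 16 lower and 1 had no bound, and 0 were past 2-fold in either direction. The median was 0.00, which is the value assigned to the gene with no bound. With no floor it was -0.03. The lower end was Plxnb1, a plexin that associates with MET, at 204 and 112 or -0.86, with a second probe set at -0.73. Gab1, the docking protein that MET recruits, followed at 412 and 262 or -0.66, with a second probe set at -0.52. Yes1, a Src family kinase, was at -0.51 by its brightest and at 0.32 by its other probe set. Grb10, an imprinted adaptor, was at -0.45, with a second probe set at -0.19. The highest was Cblb, a ubiquitin ligase, at 0.35, with other probe sets between 0.02 and 0.16.

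Of 12 measured relatives of the PDGF and MET systems 8 were higher and 4 lower, 0 past 2-fold in either direction, with a median of 0.18. Vegfd, a lymphatic growth factor, was at 464 and 849 or 0.87, with other probe sets between 0.77 and 1.05. Its receptor gene Flt4 was at 0.70 and Vegfc, the other lymphatic ligand, at 0.60. Kit, the stem cell factor receptor and a class III kinase like the PDGF receptors, was lower at -0.56. Pgf, Flt3 and Mst1 were under the floor in both arrays.

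**Figure D4:**
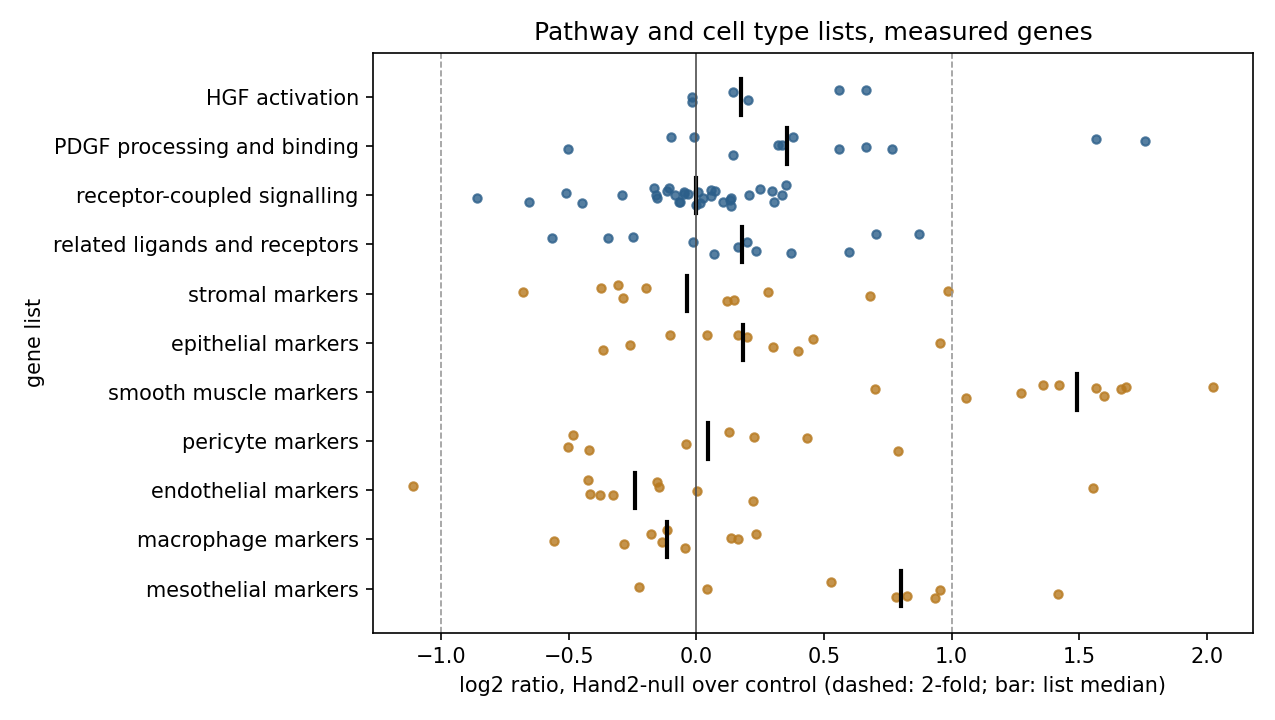
Log2 ratio of Hand2-null over control for each measured gene of 4 pathway lists (blue) and 7 cell type lists (ochre), with a black bar at the list median and dashed lines at 2-fold. Points are spread vertically for legibility. Smooth muscle markers lie to the right, with a median of 1.49. Receptor-coupled signalling genes lie on both sides of their median of 0.00, the value assigned to a gene with no bound.

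Markers of other cell types were read beside these values, and their part in the members' ratios was not tested. The smooth muscle and mesothelial lists had the highest medians, and the other lists moved less. All 10 smooth muscle markers were higher, with 9 past 2-fold, a median of 1.49 and summed signals of 15580 in the control and 35321 in the Hand2-null array. They were led by Cnn1 at 2.02 and Myh11 at 1.68. Of 8 mesothelial markers 7 were higher, with a median of 0.80, or 1.24 with no floor. A floor at the 75th percentile left 4 of them measured, with a median of 0.39. The summed signals of the list were 3104 and 3972. Msln, Bnc1, Lrrn4 and Upk1b were under the floor in the control, so their ratios are bounds. Krt19 and Krt8 stand on the epithelial list too. Of the rest, Upk3b was at 1.42 and Wt1 at -0.23. The smooth muscle and mesothelial lists moved the same way as A2m, Pdgfrl and the 4 higher members, Pdgfa, Pdgfc, Met and Pdgfrb. The 4 lower members went the other way. Of all measured genes 44.1% were higher, so a shared direction is common. Of 8 pericyte markers, the cells that Pdgfb reaches through Pdgfrb, 4 were higher and 4 lower. The median was 0.04, with Cspg4 at 0.79 and Rgs5 at -0.48. Summed signals were 7059 and 5840, of which Rgs5 alone made up 4435 and 3176, so the lower sum follows that gene. Of 10 endothelial markers, a source of Pdgfb, 3 were higher and 7 lower. The median was -0.24, with summed signals of 4057 and 3486. They ranged from -1.11 for Cdh5 to 1.55 for Cldn5. Of 9 measured macrophage markers 3 were higher and 6 lower. The median was -0.11, with summed signals of 10312 and 9857, and Fcgr1 at -0.56. Cd163 was under the floor in both arrays.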

How the data were processed

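The authors deposited array intensity on a linear scale. The submitters' processing notes name MAS5 and Affymetrix Expression Console, version 1. With 2% trimmed from each end, the mean of either array was 150.001, so each had been scaled to the same mean. Per the labels' protocols, 100 ng of RNA was labelled. Since MAS5 subtracts mismatch signal, ratios between dim readings are unsteady. Detection calls were not used here, and no genome build of the probes is given in the sources used here.

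Of 45101 probe sets 64 controls were left out, and 34945 had 1 gene in the platform annotation, 932 several and 9160 none listed. All 8 members matched a RefSeq gene of GRCm38.p6 by Entrez ID. Signals were put on a log2 scale, values under the floor were set to it, and where this left a bound opposed to the brighter array (63 genes) the ratio was set to 0. The threshold was 2-fold. No test was run, since there is 1 array per group. Genes named were the members with all probe sets, Hand2 and up to 4 genes per list, those of the largest ratio in size. Genes of like signal were not named, since levels of different probe sets are not comparable. Pcsk5, Cblb, Krt8, Wt1 and the genes under the floor fall outside this rule and were chosen with their values in view. A list entry without a match on the array is not reported here. Members and lists were chosen with earlier results of these arrays known. The computation was tested on simulated arrays with the same noise at every signal level, which does not cover the unsteadiness of dim readings. Promoters are from RefSeq, GRCm38.p6. Alternatives were other scalings (median, quantile, loess with a span of 0.3), floors, probe set rules and thresholds. Python 3.11.15, numpy 2.4.6, pandas 2.3.3, statsmodels 0.14.6 and matplotlib 3.10.9 were used.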

Additional observations from a re-analysis of the deposited data

How the results depend on the processing

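The 8 member genes kept their direction under each of the scalings, floors and probe set rules in which they had a value. Met and Pdgfb had none with the floor at the 75th percentile. Median centring, quantile normalization and loess each left 2 members at least 2-fold lower and 0 at least 2-fold higher. The ratio of Hgf was -0.998 with a pseudo-signal equal to the floor and, as a bound only, -0.59 or lower with the floor at the 75th percentile. The means over measured probe sets, -0.74 for Hgf and -0.67 for Pdgfd, each average 1 measured ratio with a set whose Hand2-null signal is below the floor, entered as 0 for Hgf and at its bound of -0.30 for Pdgfd, so they do not show a difference short of 2-fold. The number of members at least 2-fold lower was 1 with the floor at the 75th percentile, 0 with the pseudo-signal, 0 with these means and 0 at a threshold of 3-fold. The number higher was 1, Pdgfa, with the mean, at 1.01, and 1 at a threshold of 1.5-fold. The dim Hgf probe set 1451866_a_at, with no bound as reported, was at -0.95 with no floor, and the dim Pdgfd probe set 1426319_at at -1.18. The second values of these sets lie under the floor, which raised floors and pseudo-signals draw toward 0 by their construction. Over all genes, 117 were higher and 45 lower with that higher floor, 1646 and 1626 with no floor, 117 and 40 with the pseudo-signal, 644 and 345 at 1.5-fold and 49 and 20 at 3-fold. Over the alternatives the list median ranged from 0.11 to 0.31 for HGF processing and from 0.33 to 0.41 for PDGF processing and binding. For receptor-coupled signalling it ranged from -0.03 to 0.00, and for the relatives from 0.12 to 0.25. Each shift was under the SD between probe sets, which is a wide yardstick for a median over genes. No paired analysis was possible because each genotype has 1 array. Signals near the floor limit Hgf, Pdgfb, the dim Pdgfd sets and the dimmest sets of Pdgfa and Pdgfra.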
